A study of Rattus norvegicus with 6 samples.

Results

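Single-exon circular RNAs (circRNAs) were taken as the rows of the circRNA table that were typed as exonic circRNA and had an exon number of 1. The rule found 279 such circRNAs, which were 5.83% of 4783 exonic circRNAs, and the whole table held 5216 circular RNAs when the 433 intronic ciRNAs were included. They came from 266 host genes and held 1644 of the 14288 exonic back-splice reads (11.5%). A back-splice read is a sequencing read that crosses the junction at which the end of an exon is joined to an earlier start, and for a single-exon circRNA both ends belong to the same exon. The rule used only the type and the exon number, so that reads, recurrence and group differences played no part in it. Length values played no part either, but by the rule each length is that of 1 exon.

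The samples were lungs of Sprague–Dawley rats that were 7 weeks old when they entered the study. Control rats received saline, and pulmonary fibrosis (PF) model rats received bleomycin at 7 mg/kg as 1 intratracheal instillation. Lungs were collected on day 28, and 3 control and 3 PF model rats had 1 rRNA-depleted library each. The samples were pieces of whole lung, so that fewer cells of a type and less RNA per cell cannot be told apart. A single dose of bleomycin injures the lung at the start and is not a continuing exposure, which limits it as a model of chronic disease.

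CircRNAs are made when the spliceosome joins a splice donor to an acceptor that lies upstream of it, and they have no free ends and resist exonucleases. A single exon can be circularised only when its own acceptor and donor are joined, and long introns on both sides, which can pair with each other through inverted repeats, are known to favour this. Several well-studied circRNAs, among them those of Hipk3 and Cdyl, consist of 1 long exon.

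The libraries held between 2037 and 2964 back-splice reads. The deposited FPKM (fragments per kilobase of transcript, scaled to depth) showed lung tissue. Sftpc, surfactant protein C of alveolar type 2 cells, lay between 2410 and 4146 FPKM, Scgb1a1 of airway club cells between 4065 and 7693 FPKM, and Ager of alveolar type 1 cells between 272.8 and 411.6 FPKM. Pecam1, Foxj1 and Marco were not matched by symbol, and the levels of these markers were not analysed here. The summed FPKM of the fibroblast markers Col1a1, Col3a1 and Pdgfra was 244 to 269 in control and 274 to 345 in PF model libraries. These sums did not overlap between groups, while those of the alveolar type 2, alveolar type 1, endothelium, airway, macrophage and cardiac muscle markers did. The fibroblast difference was not tested, and of the fibroblast genes Col3a1 alone was apart. It lay between 154 and 178 FPKM in control and between 189 and 233 FPKM in PF model libraries. Col1a1 and Pdgfra each overlapped between groups. The summed cardiac muscle markers were at 14.3 FPKM in PF model 3 and between 1.27 and 2.75 FPKM in the other libraries. PF model 3 also had the most back-splice reads, and the most single-exon reads relative to the clean reads of its library, and values without it are given where they change a direction. The part of these markers in the following results was not tested.

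The amount of single-exon circRNA was compared between PF model and control lungs first. Control libraries held 284, 261 and 267 single-exon back-splice reads, and PF model libraries held 283, 194 and 355. The PF model libraries thus included both the lowest and the highest value, and the groups overlapped. The means were 271 ± 11.9 and 277 ± 80.6 reads (SD, n = 3 each), and the difference of 6.67 reads was within the spread (two-sided exact permutation test, p = 0.9, adjusted p = 1 over 4 comparisons). No p below 0.1 is possible with 3 rats against 3. Without PF model 3 the difference was -32.2 reads, and without the most abundant circRNA it was -1.33 reads.

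The share of single-exon reads among exonic back-splice reads removes the total of back-splice reads of the library. It was 11.4% in control 1 (95% Wilson interval 10.2 to 12.7), 12.4% in control 2 (11.1 to 13.9) and 10.4% in control 3 (9.32 to 11.7). In the PF model it was 11.9% (10.7 to 13.3), 9.96% (8.71 to 11.4) and 12.6% (11.4 to 13.8). These intervals cover counting error only. The shares overlapped between groups, with means of 11.4% ± 0.985 and 11.5% ± 1.36 (SD, n = 3 each; two-sided exact permutation test, p = 0.9, adjusted p = 1). The difference was 0.0584 percentage points, and it was -0.479 points without PF model 3.

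The number of different single-exon circRNAs with a read was 87, 86 and 80 in control libraries and 90, 76 and 100 in PF model libraries. It was lowest in the library with the fewest exonic back-splice reads and highest in the library with the most. The means were 84.3 ± 3.79 and 88.7 ± 12.1 (SD, n = 3 each; two-sided exact permutation test, p = 0.7, adjusted p = 1). The difference was 4.33, and it was -1.33 without PF model 3. Over both groups, 94 single-exon circRNAs had reads in control lungs only, 92 in PF model lungs only and 93 in both. The 93 shared ones held 84.1% of the single-exon reads. Of those read in 1 group, 90 of 94 and 83 of 92 had been found in a single library.

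**Figure D1:**
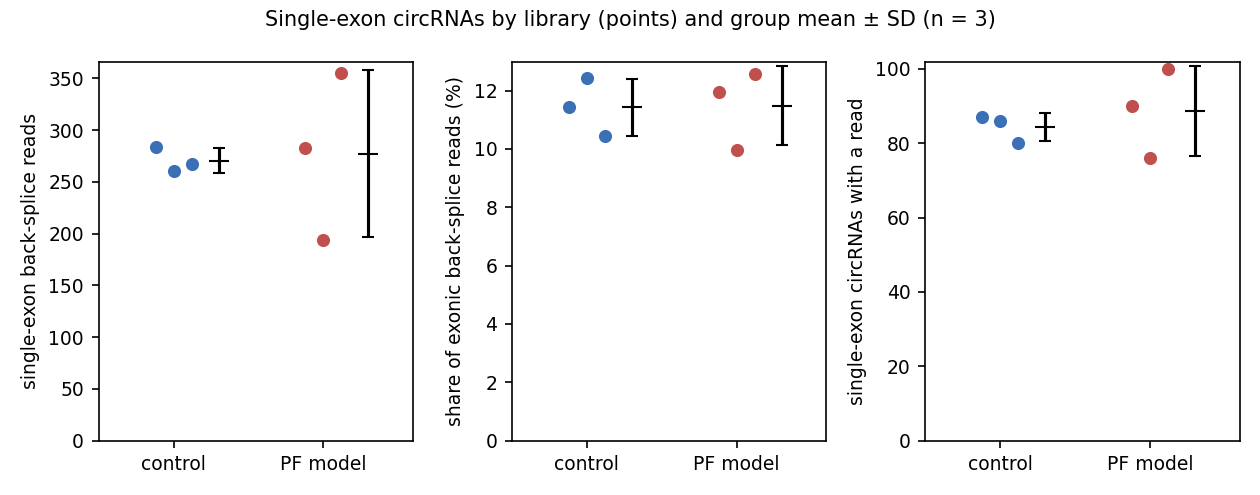
Single-exon back-splice reads, their share of exonic back-splice reads in percent, and the number of single-exon circRNAs with a read, on axes that start at 0. Points are the 3 control and 3 PF model libraries and the bars beside them are the group mean ± SD; in each panel the PF model points lie on both sides of the control points.

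A small number of circRNAs held most of the single-exon reads. The most abundant 1 of the 279 held 22.9% of them and the 10 most abundant held 53.3%. Among circRNAs of 2 or more exons these shares were 1.58% and 7.57%. At the other end, 132 single-exon circRNAs (47.3%) had 1 read in all 6 libraries together, and 120 had between 2 and 9 reads. The 27 with 10 or more reads held 67.1% of the reads.

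Recurrence was counted as the number of libraries with at least 1 read. There were 173 single-exon circRNAs (62.0%) in 1 library, 44 in 2, 22 in 3, 19 in 4, 10 in 5 and 11 in all 6 libraries. Of circRNAs with 2 to 4 exons, 71.9% were found in 1 library and 2.14% in all 6. Of those with 5 or more exons, 81.0% were found in 1 library and 0.747% in all 6, against 3.94% of the single-exon circRNAs. Single-exon circRNAs were thus 13.3% of the 83 exonic circRNAs found in every library.

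**Figure D2:**
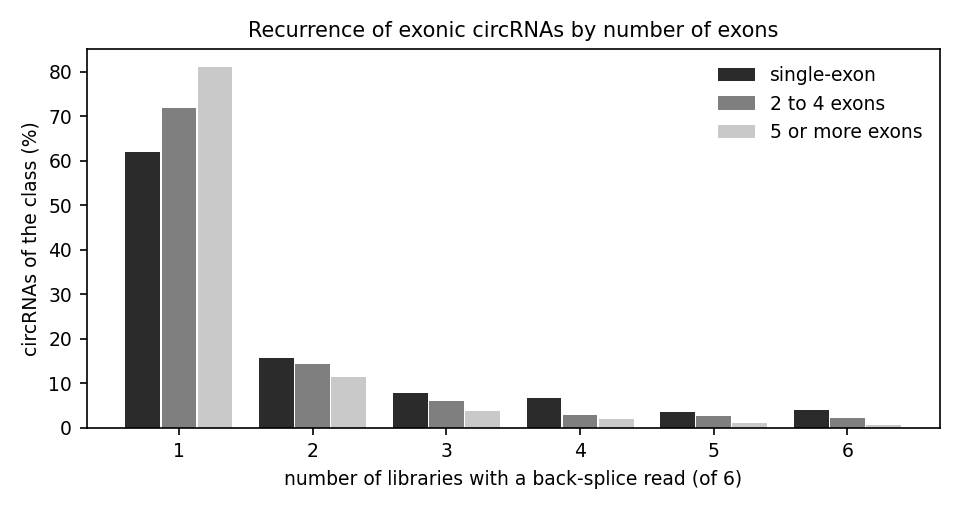
Percent of the circRNAs of each class (1 exon, 2 to 4 exons, 5 or more exons) by the number of libraries, of 6, in which they had a back-splice read. The single-exon bar is the lowest of the 3 at 1 library (62.0%) and the highest at each larger number, up to 3.94% at 6 libraries.

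Both classes were then compared inside each library, since they share its reads. Of the single-exon circRNAs of a library, 64.4%, 64.0% and 65.0% in control and 66.7%, 73.7% and 67.0% in PF model libraries had a read in another library. For circRNAs of 2 or more exons these values were 46.6%, 50.9%, 49.5%, 50.8%, 51.4% and 44.6%. The single-exon share was higher in 6 of 6 libraries, with means of 66.8% ± 3.60 and 49.0% ± 2.76 (SD over 6 libraries) and a difference of 17.8 percentage points. Each library's value depends on reads in the other libraries, and a recurrent circRNA counts in several of them, so the 6 values are not independent and no p is given for them. Against circRNAs of 2 to 4 exons, which recurred at 54.4%, the difference was 12.4 points.

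Single-exon circRNAs also had a higher mean number of reads. A back-splice read marks 1 junction whatever the exon length, so counts were not divided by length. A detected single-exon circRNA had a mean of 3.26, 3.03, 3.34, 3.14, 2.55 and 3.55 reads in control 1 to 3 and PF model 1 to 3. A circRNA of 2 or more exons had 1.86, 1.86, 2.12, 1.84, 1.84 and 1.92 reads. The single-exon mean was higher in 6 of 6 libraries (3.15 ± 0.34 against 1.91 ± 0.11, SD, n = 6). The two-sided exact paired permutation test gave p = 0.03125, the smallest that 6 libraries allow. The p was also 0.03125 after adjustment over 3 class comparisons, 2 of which are given without a p. It takes libraries as replicates, but the 11 members found in all 6 held 52.3% of the single-exon reads. It therefore does not extend to other circRNAs of either class. Without the circRNA of Nf1x the single-exon mean was 2.46 reads, and it was still higher in 6 of 6 libraries. The mean leans on few members, since the 10 most abundant held 53.3% of single-exon reads, against 7.57% for multi-exon circRNAs. Means without these 10 are not given here. Over the 6 libraries together, 9.68% of single-exon and 4.40% of multi-exon circRNAs had 10 or more reads, and 47.3% and 55.2% had 1 read. Among circRNAs with 1 read in a library, which matches their reads there but not in the other libraries, 54.3% of single-exon and 38.9% of multi-exon circRNAs had a read in another library, again with the single-exon share higher in 6 of 6.

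The introns beside the circularised exon were compared in the same way. The files give both flanking introns for 278 of the 279 members. In each library, the median of their summed length over single-exon circRNAs was 39656, 39198 and 53184 bases in control and 47266, 40204 and 54967 bases in PF model lungs. For circRNAs of 2 or more exons the medians lay between 16340 and 18448 bases. Single-exon circRNAs had the longer introns in 6 of 6 libraries (means 45746 ± 7118 and 17392 ± 724 bases, SD over 6 libraries). Intron length is a fixed property of a circRNA, and recurrent circRNAs enter several medians, so the libraries are not independent replicates of it and no p is given. With the shorter of both introns in place of the sum, the means were 11223 and 4407 bases, with the same order in 6 of 6 libraries.

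**Figure D3:**
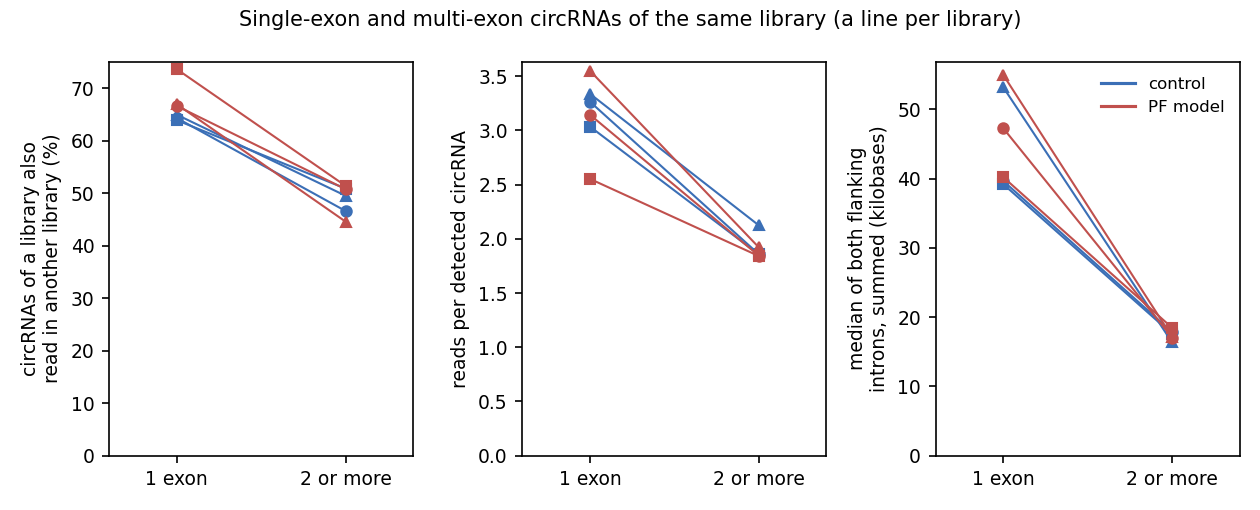
Recurrence in percent, mean reads per detected circRNA and median summed length of both flanking introns in kilobases, for single-exon circRNAs and circRNAs of 2 or more exons of the same library. Each line is a library, blue for control and red for PF model (circle, square and triangle for replicates 1, 2 and 3), and every line falls from left to right.

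Counted once each, the members had a median upstream intron of 13373 bases and a median downstream intron of 13649 bases. Their summed introns had a median of 33703 bases, against 14521 bases over circRNAs of 2 or more exons. The median was 27503 bases for members found in 1 library and 51949 bases for those found in 2 or more. Among circRNAs of 2 or more exons it also rose, from 12627.5 bases at 1 library to 33697 bases at 6. Among members the rise was not steady, with 72734 bases at 4 libraries and 48047 bases at 6. Long introns were not shared by all, since 34 members had a flanking intron under 1000 bases. These included Lamb2 (circRNA2060), with introns of 73 and 81 bases, and Lama5 (circRNA1846), with introns of 84 and 98 bases, both laminin genes and both with no more than 2 reads. Others recurred, such as Med13l (circRNA1345), with an intron of 55 bases and 16 reads in 5 libraries. Dnmbp (circRNA1117) had an intron of 439 bases and reads in all 6. A short intron was present in 12.7% of members found in 1 library and in 11.3% of those found in 2 or more.

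The exons were between 114 and 5787 bases long, with a median of 403 bases and quartiles of 220.5 and 742.5 bases. Between 200 and 800 bases lay 160 of them (57.3%), and 45 (16.1%) were longer than 1000 bases. Members found in 1 library had a median length of 330 bases, and those found in 2 or more had one of 520 bases. Over the 279 members, Spearman's correlation was 0.199 between length and reads and 0.236 between length and the number of libraries, as a description, since host genes and libraries are shared. The length at the middle of the reads, with each exon weighted by its reads, was 532 bases in every library, which is the exon of Nf1x. The group difference of this measure was therefore 0 (two-sided exact permutation test, p = 1). With each detected circRNA counted once, the median was 496, 492.5 and 469.5 bases in control and 520, 518.5 and 476 bases in PF model libraries, and the groups overlapped.

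The longest exons were those of Tcf20, a transcriptional coregulator, Macf1, which links microtubules and actin, and Arhgap35, a GTPase activating protein. Tcf20 (circRNA518) had 5787 bases, 9 reads and 4 libraries, and its exon made up 89.0% of the listed host transcript. Macf1 (circRNA1724) had 5319 bases and 1 read, and Arhgap35 (circRNA3349) had 3869 bases and 4 reads in 2 PF model libraries. Among the shortest were those of Khdrbs3, an RNA-binding protein (circRNA2371, 119 bases), and Apaf1 of the apoptosome (circRNA1626, 120 bases), each with 1 read.

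**Figure D4:**
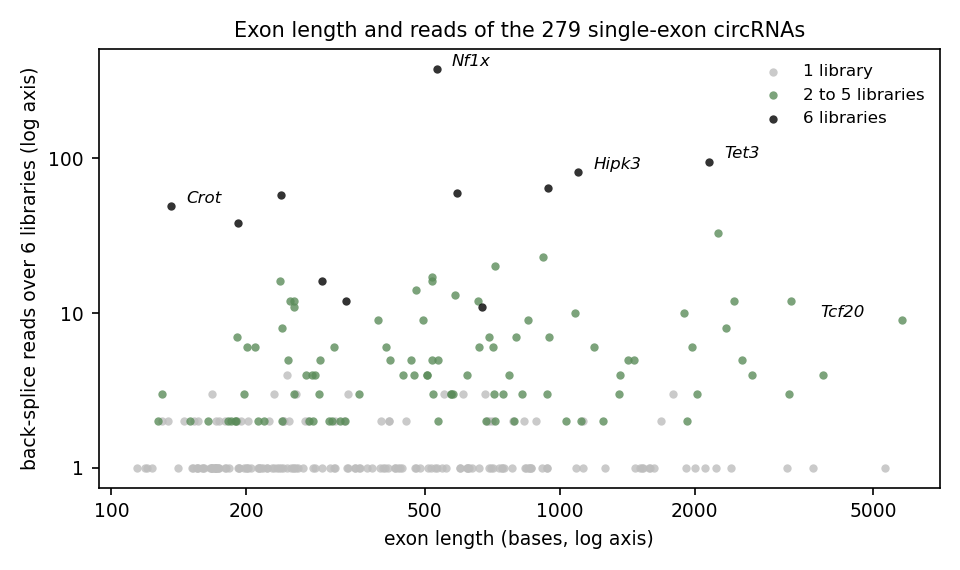
Exon length in bases against back-splice reads summed over the 6 libraries for the 279 single-exon circRNAs, both on log axes, with points shaded by the number of libraries with a read. Nf1x (532 bases, 376 reads) stands above all others, and the members found in 6 libraries spread from 136 bases (Crot) to 2155 bases (Tet3).

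The circRNA with most reads was circRNA380 of Nf1x, which encodes a DNA-binding transcription factor of the nuclear factor I family. Its exon of 532 bases lies on chromosome 19 from 25886356 to 25886887 on the minus strand, between introns of 27743 and 44613 bases, and makes up 30.6% of a host transcript of 11 exons. It had 60, 63 and 53 reads in control and 69, 46 and 85 reads in PF model libraries. The groups overlapped, and PF model libraries held both the lowest and the highest count. It was 99.2% of the circular reads of its gene and between 2.07% and 3.01% of all exonic back-splice reads of a library. The linear Nf1x level was 42.1 ± 5.70 FPKM in control and 44.3 ± 2.43 FPKM in PF model lungs (SD, n = 3).

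The other members in every library included regulators of chromatin and transcription. Tet3 (circRNA770, 2155 bases), of the dioxygenase that oxidises 5-methylcytosine in DNA, had 16, 18 and 16 reads in control and 15, 4 and 26 in PF model libraries. Pwwp2a (circRNA141, 944 bases), of a chromatin reader protein, had 9, 8 and 17 and then 7, 3 and 20 reads. In both cases PF model 2 was lowest, PF model 3 was highest, and the control values lay between them. Hdac4 (circRNA1174, 239 bases), of a histone deacetylase, varied little, with 10, 8 and 8 reads in control and 10, 12 and 10 in PF model libraries. The Hdac4 groups met at 10 reads.

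Kinases, signalling enzymes and adaptors formed a further part of the members in every library. Hipk3 (circRNA847, 1099 bases), of a nuclear protein kinase, had 20, 9 and 13 reads in control and 12, 11 and 16 in PF model libraries. Pde5a (circRNA981, 589 bases), of the phosphodiesterase that hydrolyses cGMP and is a drug target in pulmonary hypertension, had 14, 8 and 9 and then 5, 13 and 11 reads. Gab1 (circRNA383, 295 bases), of an adaptor of receptor tyrosine kinases, had 2, 3 and 2 and then 5, 3 and 1 reads. The groups overlapped for each of these genes. All circular reads of Hipk3 came from the single-exon circRNA (100%), whereas Pde5a also gave 4 multi-exon circRNAs with 9 reads.

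The remaining members in every library came from genes of metabolism, the cytoskeleton and RNA binding. Crot (circRNA729, 136 bases), of the peroxisomal carnitine octanoyltransferase, had 9, 5 and 8 reads in control and 16, 5 and 6 in PF model libraries. Sptbn1 (circRNA368, 192 bases), of a beta spectrin of the membrane skeleton, had 6, 4 and 6 and then 11, 2 and 9 reads. Dnmbp (circRNA1117, 333 bases), of a scaffold that binds dynamin, had 4, 3 and 1 and then 2, 1 and 1 reads. Values of both groups overlapped again, and for Crot a single library, PF model 1, was above all others. Rbm4b (circRNA1098, 671 bases), of an RNA-binding protein, had between 1 and 3 reads in each library.

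Shank3 and Prkd3 were among the 10 most abundant but were each without a read in 1 control library. Shank3 (circRNA525, 2260 bases), of a synaptic scaffold protein, had 6, 10 and 0 reads in control and 8, 3 and 6 in PF model libraries. Prkd3 (circRNA1654, 916 bases), of a protein kinase of the D family, had 0, 6 and 2 and then 6, 4 and 5 reads. A count of 0 at this depth allows up to 3 reads, so absence from the library cannot be read from it.

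**Figure D5:**
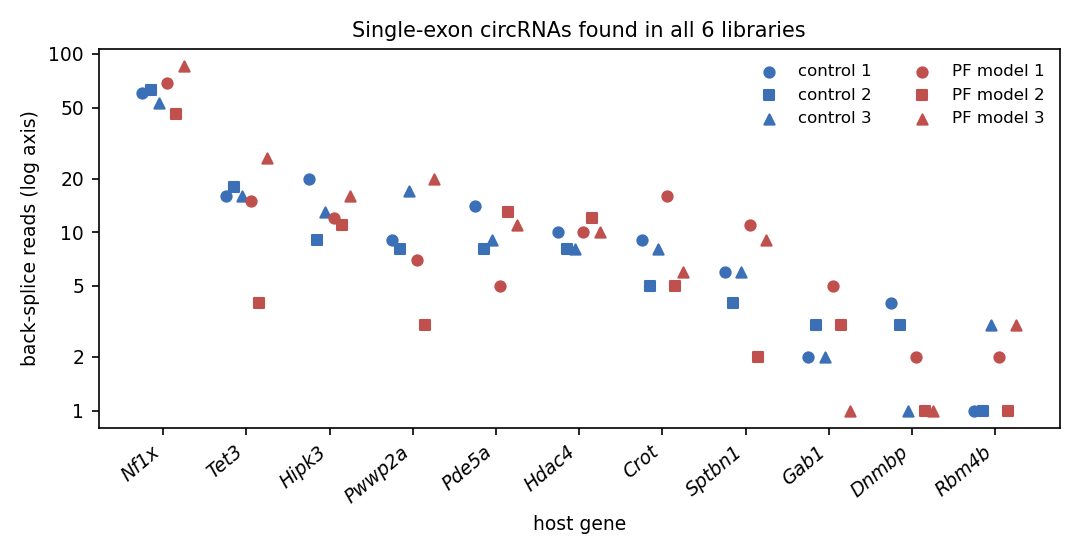
Back-splice reads, on a log axis, of the 11 single-exon circRNAs found in all 6 libraries, by host gene in order of total reads. Blue points are control and red points PF model libraries, with a symbol for each replicate; for every gene the ranges of both groups overlap or, for Hdac4, meet at 10 reads.

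Single circRNAs were tested with edgeR over all 226 circular RNAs with at least 10 reads, and 27 of the 279 members met that minimum. Of these 27, 2 had an unadjusted p of at most 0.05, 1 higher and 1 lower in the PF model, where the share over all circular RNAs tested was 5.75%. An adjusted p below 0.05 was reached by 0 members (0.442% of all tested). With DESeq2 it was reached by 0 members and by 0 of all tested. DESeq2 also gave 0 members at an unadjusted p of at most 0.05, where 5 of all 226 tested were called. A change of at least 2-fold was fitted for 6 members, 3 higher and 3 lower (27% of all tested). The normalized reads of the groups did not overlap for 4 members, against 11.5% of all tested. The log2 fold changes, PF model over control, were positive for 13 and negative for 14 members with a median of -0.07, and the median of all tested was 0.04. The smallest adjusted p of a member was 0.818. The 11 members found in all libraries had log2 fold changes between -0.95 and 0.44, and none of them had a p below 0.483.

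The member with the smallest p for a decrease was Cdyl2 (circRNA396, 583 bases), of a chromodomain protein of chromatin. It had 3, 5 and 4 reads in control and 1, 0 and 0 in PF model libraries, so that the groups were apart. In normalized reads, scaled to the mean library, these were 4.08 ± 1.42 and 0.343 ± 0.594 (SD, n = 3), a log2 fold change of -3.17 (edgeR, adjusted p = 0.818). The linear level of the gene lay between 3.03 and 3.69 FPKM in all libraries. Fat1 (circRNA266, 3286 bases), of an atypical cadherin, followed with 3, 1 and 7 reads in control and 1, 0 and 0 in PF model libraries. Its log2 fold change was -2.97 (edgeR, adjusted p = 0.966), and since control 2 and PF model 1 had 1 read each, the groups were apart only after normalization. Akap2 (circRNA1706, 2446 bases), of an anchor of protein kinase A, had 0, 3 and 6 and then 0, 1 and 2 reads, with a log2 fold change of -1.46 (edgeR, adjusted p = 0.990).

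The member with the smallest p for an increase was Med13l (circRNA1345, 238 bases), of a subunit of the Mediator complex. It had 0, 1 and 1 reads in control and 2, 4 and 8 in PF model libraries, so that the groups were apart. In normalized reads these were 0.672 ± 0.597 and 4.54 ± 2.42 (SD, n = 3), a log2 fold change of 2.57 (edgeR, adjusted p = 0.818). The linear level lay between 23.8 and 27.8 FPKM. Hipk2 (circRNA1765, 1084 bases), of a nuclear protein kinase related to Hipk3, had 0, 1 and 0 reads in control and 2, 1 and 6 in PF model libraries, with a log2 fold change of 2.68 (edgeR, adjusted p = 0.990). Disp1 (circRNA49, 519 bases), which releases hedgehog ligands from cells, had 3, 1 and 0 and then 4, 5 and 3 reads, with a log2 fold change of 1.52 (edgeR, adjusted p = 0.990). Of these 6, Cdyl2 and Med13l were the members with an unadjusted p of at most 0.05, and none of the 6 had more than 16 reads in all. Without control 2, PF model 2 or PF model 3, 0 of the 20, 24 and 22 members tested had a p of at most 0.05. Over all circular RNAs tested these fits called 9 of 197, 7 of 187 and 6 of 180. Without PF model 1 there were 3 members, with Fat1 added to Cdyl2 and Med13l, and 15 of all 191 tested. Without control 3 the member called was Med13l (8 of all 174 tested), and without control 1 it was Cdyl2 (9 of all 184 tested). Cdyl2 had too few reads to be tested without control 2 or control 3, and Med13l without PF model 3. The same held for Fat1 without control 1 or control 3.

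Host genes were described by lists, as counts and with no test of the lists. Over all exonic hosts, 10.0% gave a single-exon circRNA. Of 8 genes known as hosts of circRNAs, 2 were not analysed here. The other 6 hosted an exonic circRNA and 4, Hipk2, Hipk3, Cdyl and Fat1, hosted a single-exon one. Their 5 single-exon circRNAs held 116 reads, 62 in control and 54 in PF model libraries. Cdyl (circRNA230, 658 bases), of a chromodomain protein, had 3, 0 and 4 reads in control and 2, 0 and 3 in PF model libraries and was 31.6% of the circular reads of its gene. For Fat1 a further exon of 315 bases (circRNA265) had 1 read.

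Of 51 chromatin modifier genes that hosted any exonic circRNA, 11 hosted a single-exon one, and these were 4.14% of the single-exon hosts, where the listed genes were 1.92% of all exonic hosts. Their 15 circRNAs held 208 reads, 115 in control and 93 in PF model libraries, most of them from Tet3 and Hdac4. By library the list had 40, 36 and 39 reads in control and 30, 19 and 44 in PF model lungs, so that the PF model values lay on both sides of the control values. Of its 4 circRNAs tested, 1 (Cdyl2) had an unadjusted p of at most 0.05, against 5.75% of all circular RNAs tested. This call was lost with DESeq2 and with a replicate block, which called 5 and 2 of all 226 tested. The others were sparse. Crebbp, of a histone acetyltransferase, gave circRNA1388 (710 bases) with 0, 2 and 3 and then 0, 1 and 0 reads, and Chd6, of a chromatin remodeller, gave circRNA890 (518 bases) with 1, 2 and 1 and then 0, 1 and 0 reads. Tet2, of a further methylcytosine dioxygenase, gave circRNA992, which like that of Tet3 is a long exon (3248 bases), with 3 reads in 3 libraries. Kdm5b, of a histone demethylase, gave circRNA2832 with 3 reads, all in PF model libraries. Nsd1, Bptf and Ash1l had no more than 5 reads in a circRNA.

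Zinc finger transcription factors were 3.38% of the single-exon hosts and 1.36% of all exonic hosts, with 9 of 36 such hosts giving a single-exon circRNA. The 9 circRNAs held 30 reads, 17 in control and 13 in PF model libraries, and 5 were found in 1 library. Zfp608 (circRNA2321, 256 bases) had 0, 0 and 6 reads in control and 4, 0 and 2 in PF model libraries. Zfp532 (circRNA430, 2354 bases) had 3, 0 and 2 and then 1, 1 and 1 reads, and it was 8.42% of the circular reads of its gene, with 87 reads in 5 multi-exon circRNAs. Zbtb16 (circRNA2768, 1357 bases), of a BTB domain repressor, had 3 reads in all. The remaining 6 hosts, among them Zfp516 and Zfp423, had 1 or 2 reads each.

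Genes of the TGF-beta and BMP pathway, which is central to fibrosis, gave 6 single-exon circRNAs from 5 of the 13 listed genes that hosted any exonic circRNA. The 5 genes were 1.88% of the single-exon hosts, where the 13 were 0.490% of all exonic hosts. The 6 circRNAs held 3, 3 and 2 reads in control and 5, 3 and 7 reads in PF model libraries. Both groups thus had a library with 3 reads. Hipk2 supplied 10 of the 23 reads. Ltbp1, which binds latent TGF-beta in the matrix, gave circRNA1662 (292 bases) with 0, 2 and 1 and then 1, 1 and 0 reads and circRNA2393 with 1 read. Smad1, which carries BMP signals to the nucleus, had 3 reads (circRNA384), as had Zfyve9, which presents Smad proteins to the receptor (circRNA667). Bmpr1a, a BMP receptor, had 1 read (circRNA2970). Of these circRNAs, that of Hipk2 alone had enough reads to be tested.

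Genes of the matrix and cell adhesion gave 4 single-exon circRNAs from 4 of 37 hosts, namely Lamb2, Lama5, the integrin subunit Itgb5 and the metallopeptidase Adamts12. They held 5 reads, 4 in control and 1 in PF model libraries. Ubiquitin ligases and proteases gave 7 from 7 of 85 hosts, with 10 reads, 4 in control and 6 in PF model libraries. The 7 genes were 2.63% of the single-exon hosts, and the 85 were 3.21% of all exonic hosts. The most reads in that list belonged to Fbxo8, of an F-box protein (circRNA2979), with 3 reads in PF model 1. No circRNA of either list had enough reads to be tested. The marker genes used for lung cell types and cardiac muscle hosted 0 single-exon circRNAs. Few of them hosted any exonic circRNA, namely 2 alveolar type 2 markers and 1 each of the alveolar type 1, endothelium, fibroblast and macrophage markers. Airway and cardiac muscle markers hosted 0. With so few hosts, the absence of single-exon circRNAs is no result about these genes.

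By the Gene Ontology annotation of the table, 244 of the single-exon hosts carried a term, and the largest group, with 89 genes (36.5%), was the nucleus, where 33.1% of the hosts of multi-exon circRNAs belonged. Zinc ion binding was held by 10.2% of single-exon and 5.48% of multi-exon hosts, and DNA binding by 11.1% and 7.47%. These last terms were chosen after their values were seen and were not tested.

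A host usually gave 1 single-exon circRNA. This held for 253 of the 266 hosts, and the other 13 gave 2. Among the 13 were Tet3, Hdac4, Shank3, Fat1, Ltbp1, Crebbp and Bptf, as well as App, of the amyloid precursor protein. In Tet3, Hdac4 and Shank3 the reads were unequal, with 95 and 1 reads, 58 and 2 reads, and 33 and 2 reads for the first and second circRNA. Of the 266 hosts, 147 (55.3%) also gave a circRNA of 2 or more exons. There, 79 members shared a splice site with a multi-exon circRNA, and 90 lay inside one of the same gene.

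The host transcripts had a median of 12 exons, and the circularised exon made up a median of 11.8% of the transcript length (261 members with a listed transcript). It lay in the first 50% of the host for 146 members, and 4 members were on chromosome X. The hosts had a median linear level of 16.4 FPKM (quartiles 7.62 and 30.03), and hosts of multi-exon circRNAs had one of 12.4 FPKM. Within the members, Spearman's correlation between host FPKM and back-splice reads was 0.0947 (n = 279, with libraries and hosts shared). The pair of Nf1x and Sptbn1 shows the spread. Sptbn1 had 234 ± 50.5 FPKM in control and 190 ± 28.1 FPKM in PF model lungs, with 38 reads of circRNA368 over 6 libraries. Nf1x had 42.1 FPKM in control and 44.3 FPKM in PF model lungs, with 376 reads of circRNA380.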

How the data were processed

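Per the labels, total lung RNA was depleted of rRNA and prepared with a stranded kit. After trimming with Cutadapt, the authors aligned reads by Bowtie2 and Tophat2, passed the unmapped ones through Tophat-fusion and called circRNAs with CIRCexplorer; the submitters' processing notes also list HISAT2, StringTie and TopHat. The genome build is not given in the sources used here, and coordinates are those of the deposited table. The deposited counts are unscaled back-splice reads per circRNA and library. The deposited SRPBM values are a signal scaled by a total per sample and served as an alternative. The deposited linear table holds FPKM and a per-base coverage signal, of which FPKM, summed over the transcripts of a gene symbol, gave host levels. No sequence is printed.

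Exon length was end minus start plus 1. Each of the 24 value columns was matched to a sample by its name. Group values were compared with two-sided exact permutation tests, classes with exact sign changes within library (no p is given for recurrence and introns, whose values are not independent between libraries), and single circRNAs with edgeR 4.0.16 by its quasi-likelihood F test (R 4.3.3, TMM, at least 10 reads over 6 libraries, Benjamini-Hochberg over all tested). Alternatives included DESeq2 1.42.0, RLE factors, filters, leaving out each library and a replicate block. The edgeR step was run on simulated counts with a lower dispersion than the 0.29 fitted here. That run checks the code and does not give the power or error of the test in these data. Python 3.11.15, numpy 2.4.6, pandas 2.3.3, scipy 1.17.1 and matplotlib 3.10.9 were used.

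Libraries held 2037 to 2964 back-splice reads, which sets the precision: most members had too few reads for a test. The members and lists were chosen with earlier results of these data known. Named circRNAs are those in all 6 libraries, the 10 with most reads, the 3 with the smallest p in each direction, the 3 longest and shortest, those of listed host genes and those the study names with 1 exon (Crebbp and Hipk2). Of the list members, those with the fewest reads are given by counts. A circRNA that the rule names is not reported here. Leaving out libraries in the class comparisons and removing Nf1x alone were added after the data were seen.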

Additional observations from a re-analysis of the deposited data

How the results depend on the processing

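The differences between groups were small against the spread and changed sign readily. The difference in single-exon reads was -55.7 on the SRPBM scale and -1.33 reads without the most abundant circRNA, and lay between -32.2 and 48.3 reads with each library left out. The share differed by -0.187 points without that circRNA and by -0.479 to 0.823 points with each library left out. The number detected differed by -2.67 when 2 reads were required and by -1.33 (without PF model 3) to 10.7 with each library left out. Median length differed by 18.8 bases with each circRNA counted once. The p of these alternatives was never below 0.1, the smallest possible for most of them.

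The number of members with an unadjusted p of at most 0.05 was 0 with DESeq2 and 0 with the replicate block. It was 0 to 3 with each library left out, where some fits could not test Cdyl2 or Med13l for lack of reads. Over all circular RNAs tested the number was 5, 2 and 6 to 15 in these settings. For members it stayed at 2 (Cdyl2 and Med13l) with RLE factors, clean reads as library sizes, other read minimums or exonic circRNAs only. Over all tested it was 13 of 226 with RLE factors or clean reads and 13 of 225 with exonic circRNAs only. It was 29 of 554 with at least 5 reads and 24 of 5216 with no minimum. No pairing of samples by the numbers in the labels was seen (correlations of same-numbered deviations -0.0768, -0.00424 and -0.112). With counts this sparse, the check cannot exclude one. The class differences kept their direction under all alternatives. With a library left out, recurrence differed by 16.9 to 18.7 points, flanking introns by 26459 to 29695 bases and reads per circRNA by 1.16 to 1.35, the last with p = 0.0625 (exact permutation test), the smallest that 5 libraries allow. Depth limits all values of single circRNAs, since most had 1 or 2 reads.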
